A study of Rattus norvegicus with 21 samples.

Results

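The genes described here encode the proton pump of the lysosome, part of its membrane and part of its enzyme content. They comprise every gene on the array whose symbol begins with Atp6v, which marks a subunit of the vacuolar proton pump (V-ATPase), together with a list of 21 lysosomal genes. Members numbered 40 of the 13438 genes read on the array. Of these, 20 were Atp6v genes (8 of the membrane sector V0 and 12 of the cytosolic sector V1) and 20 came from the list, whose remaining gene was not analysed here. Where several probe sets carried a gene's symbol alone, the brightest by its mean over the 21 arrays stood for the gene. The rule itself reads names and level and no difference between groups, although the list was drawn up with earlier results of these data known.

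INS-1 is a rat insulinoma line that secretes insulin and is widely used to stand in for the pancreatic beta cell. RNA was profiled from untransfected cells (INS1), from cells stably transfected with an empty vector (pcDNA), and from a single clone that stably overexpresses cathepsin H (CTSH), a lysosomal cysteine protease; the clone is called pCTSH#1. The lines pcDNA and pCTSH#1 were read before cytokine exposure (0 h) and after 6 or 16 h with 150 pg/ml of mouse interleukin-1β and 5 ng/ml of rat interferon-γ, both recombinant, and INS1 was read without cytokines only. Each of the 7 groups held 3 arrays. No array of untreated cells at 6 or 16 h was part of the design, so the cytokines and the time in culture cannot be told apart. A difference between pCTSH#1 and pcDNA may also belong to the 1 clone chosen. Nothing in the labels says whether replicate arrays came from separate cultures, and the spread behind every p-value may thus be technical.

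All levels are log2 probe set intensities, on which 1 unit is a doubling, and all differences are log2 differences of group means ± the standard error of 1 limma model fitted to all 21 arrays. A difference passed when its p-value, adjusted over the 31042 probe sets by the Benjamini-Hochberg procedure, was below 0.05, and only such differences are called rises or falls. Levels of different probe sets are not comparable with each other. Array medians lay between 4.88 and 5.08, and background, read from nonspecific control probe sets, between 3.88 and 4.17. Replicate arrays correlated at 0.993 to 0.996 within their groups. The median SD of a member over the 3 arrays of a group was 0.06 to 0.09. Groups of 3 arrays often did not overlap: between times of a line this held for 49.8% to 60.6% of all genes. Between pCTSH#1 and pcDNA it held for 18% at 0 h, 26.1% at 6 h and 20.9% at 16 h.

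The probe set of Ctsh itself read at or near background, with 3.90 ± 0.08 (SD, n = 3) in pcDNA and 4.0 ± 0.14 (SD, n = 3) in pCTSH#1 at 0 h. This difference did not pass (adjusted p = 0.945), and at 16 h the 3 arrays of pCTSH#1 ran from 4.11 to 5.08 against 3.50 to 4.18 in pcDNA. The labels do not say whether the transgene carries the sequence that this probe set reads, so the overexpression could not be checked here. The 7 beta cell markers measured were above background in all 7 groups, and Ins1 and Ins2, the rat insulin genes, had group means from 13.55 to 13.76 and from 12.35 to 13.27. At 16 h all 7 fell in pcDNA and 5 fell in pCTSH#1, beside 29.5% and 30.1% of all genes. Of the genes whose probe set was in the brighter 50%, 40.9% and 41.5% fell. Among these 7 markers the largest falls were those of the transcription factor genes Nkx6-1, from 8.46 to 5.45 in pcDNA and from 9.04 to 5.27 in pCTSH#1, and Pdx1, from 9.73 to 7.74 and from 9.69 to 7.96. Nkx6-1 was already at 5.32 and 6.07 at 6 h. Markers of other cell types fell too at 16 h. The glucagon gene Gcg, above background in all groups, changed by -2.34 ± 0.17 in pcDNA and -2.07 ± 0.17 in pCTSH#1. The fibroblast marker Pdgfra went from 5.82 to 3.95 and from 5.41 to 3.96. Ghrl, of other islet cells and above background in all groups, did not pass at 16 h. The part of these falls in the results on lysosomal genes was not tested. Of 9 markers of macrophages and other leukocytes, cells rich in lysosomes, 7 were at background in every group, among them the defining Ptprc, Adgre1, Csf1r and Itgam. Cd68 and Lyz2 were above it, and both rose at 16 h, Cd68, itself a protein of lysosomal membranes, by 0.83 ± 0.19 in pcDNA and 1.24 ± 0.19 in pCTSH#1. The log2 of the summed intensity of the 9 markers ran from 6.94 to 7.0 at 0 h and from 7.21 to 7.38 at 16 h in pcDNA, and from 6.98 to 7.02 and from 7.29 to 7.52 in pCTSH#1. Their part in the results was not tested.

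Lysosomes degrade proteins, lipids, glycans and glycogen with acid hydrolases that reach them through the secretory pathway, mostly by mannose 6-phosphate sorting. The V-ATPase acidifies the lumen: its V1 sector hydrolyses ATP in the cytosol and drives rotation of the V0 ring, which carries protons across the membrane. In beta cells the same pump also acidifies insulin granules, and lysosomes take up and degrade surplus granules. Many lysosomal genes carry a short palindromic element near their start sites to which the transcription factors Tfeb, Tfe3 and Mitf can bind.

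After 16 h with cytokines the members moved in both directions. Most of the membrane proteins, the cholesterol carrier Npc2, progranulin and Tfeb rose, whereas several glycosidases, the thioesterase Ppt1, the ceramidase Asah1 and a set of pump subunits led by Atp6v1a fell. In pcDNA 10 members rose and 14 fell at 16 h against 0 h, beside 25.8% and 29.5% of all genes and 34.7% and 40.9% of the genes whose probe set was in the brighter 50%. In pCTSH#1 11 rose and 13 fell, beside 25.2% and 30.1% of all genes and 34.2% and 41.5% of the brighter ones. The members' shares lay below those of the brighter genes, and 36 of the 40 were above background in all groups. Without Atp6v0a4 and Atp6v0b, a choice made after seeing the data because the first lay near background and the second has probe sets that disagree, 9 rose and 14 fell in pcDNA and 10 rose and 12 fell in pCTSH#1. The median difference over the 40 members was -0.10 in both lines, against -0.00 and -0.01 over all genes, and after cyclic loess scaling it was -0.03 in pcDNA and 0.02 in pCTSH#1. Cyclic loess also gave 13 higher and 12 lower members at 16 h in pcDNA. In a bulk extract, less RNA in every cell and fewer cells that carry it cannot be told apart.

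At 6 h most of the members that had moved were lower, as were most of all genes called. The members' falls were at about the share of the brighter genes in pcDNA and below it in pCTSH#1. In pcDNA 2 members rose and 14 fell against 0 h, beside 14.5% and 24.6% of all genes and 19.5% and 34.9% of the brighter ones, and with cyclic loess 4 rose and 10 fell. Leaving out 1 array took these 16 calls to between 10 and 14, the lowest without replicate 2 of pcDNA at 0 h. In pCTSH#1 1 rose and 9 fell, beside 13% and 21.3% of all genes and 17.8% and 30.6% of the brighter ones, and with cyclic loess 3 rose and 6 fell. From 6 to 16 h the balance turned: 14 rose and 9 fell in pcDNA, and 14 rose and 8 fell in pCTSH#1. All genes gave 24.8% and 25.1% in pcDNA and 24% and 25.2% in pCTSH#1, and the brighter ones 34.6% and 35.5%, and 33.4% and 35.7%, so the members' rises were at about the share of bright genes. The plot of single arrays shows 12 members with these courses.

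**Figure D1:**
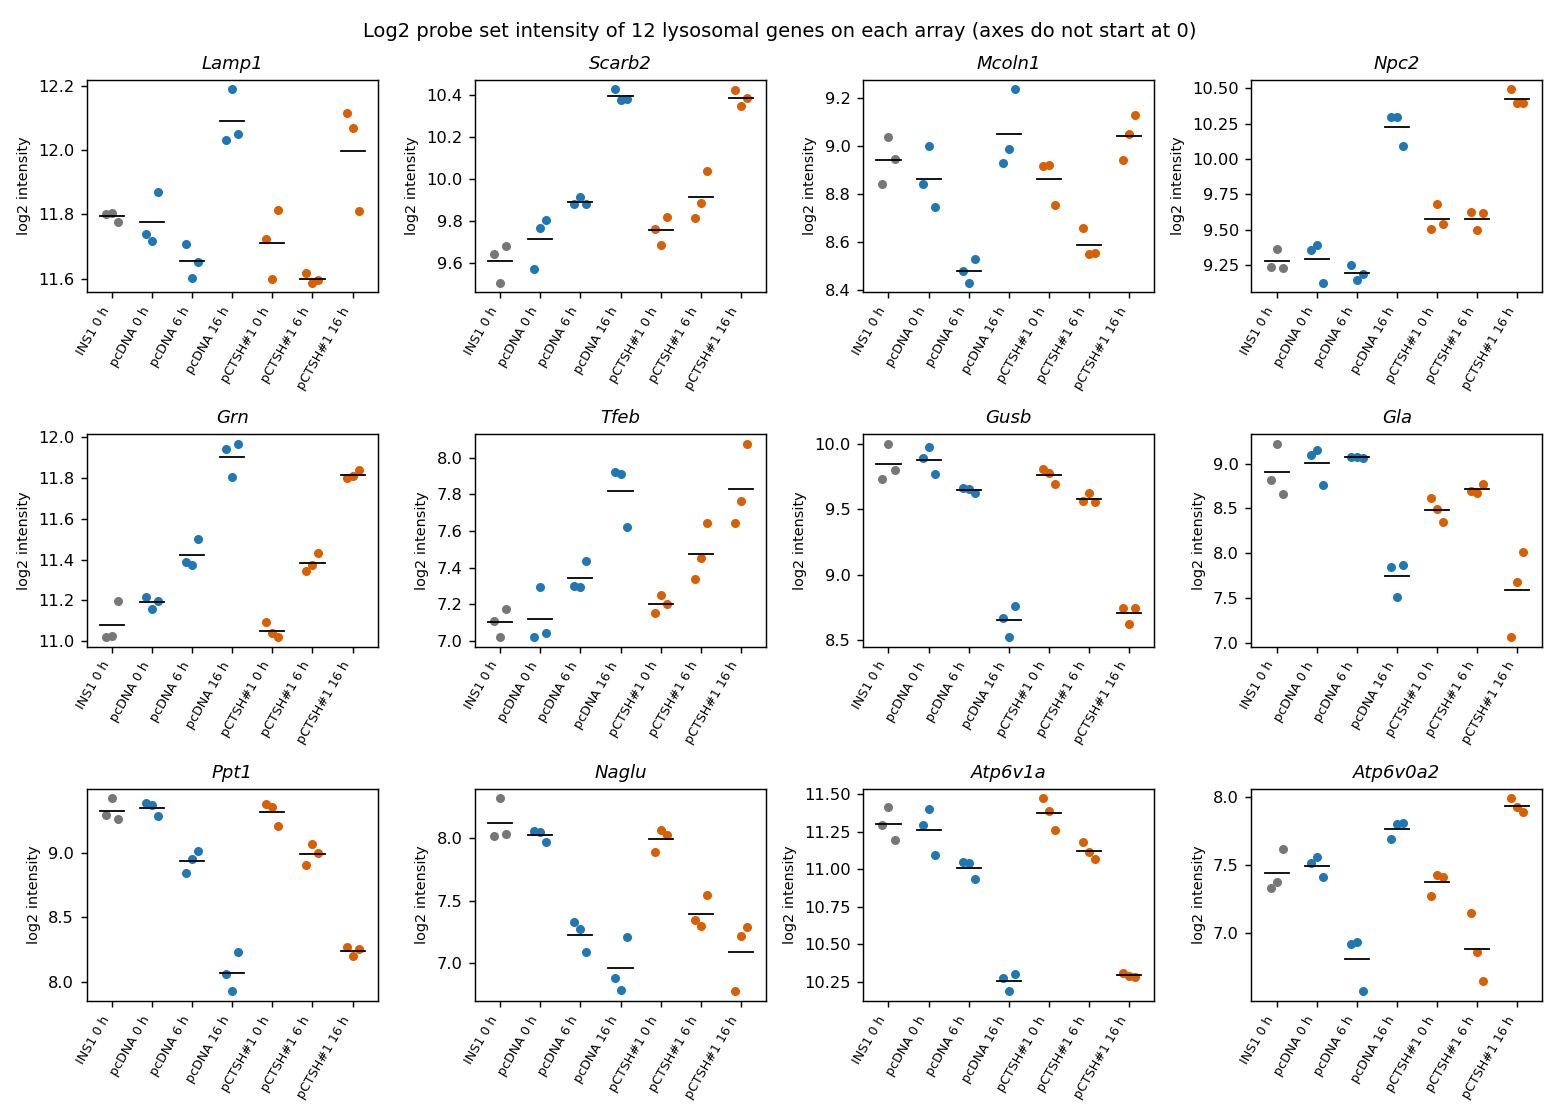
Each point is 1 array (log2 intensity, vertical axis, with a separate range per gene that does not start at 0), each bar is the mean of 3 arrays, and the groups are INS1 (grey), pcDNA (blue) and pCTSH#1 (orange) at 0, 6 and 16 h. Scarb2, Npc2 and Grn sat above all 0 h arrays of their line at 16 h, Gusb, Ppt1 and Atp6v1a sat below them, and Mcoln1 and Atp6v0a2 dipped at 6 h.

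Of the 5 membrane proteins measured, 4 rose and 0 fell at 16 h in each line, with a median difference of 0.32 in pcDNA and 0.29 in pCTSH#1. Beside this, 25.8% and 25.2% of all genes rose, and 34.7% and 34.2% of the brighter ones. Scarb2, the membrane receptor that carries glucocerebrosidase to the lysosome, read 9.58, 9.77 and 9.81 at 0 h in pcDNA, 9.88, 9.92 and 9.88 at 6 h, and 10.43, 10.38 and 10.38 at 16 h. In pCTSH#1 it read 9.76, 9.69 and 9.82 at 0 h, 9.82, 9.89 and 10.04 at 6 h, and 10.42, 10.35 and 10.39 at 16 h. In both lines the 16 h arrays lay above all others, without overlap. The rise was 0.68 ± 0.08 in pcDNA (adjusted p = 4.12e-07) and 0.63 ± 0.08 in pCTSH#1 (adjusted p = 1.22e-06), or 1.60-fold and 1.55-fold.

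Lamp2, a heavily glycosylated protein of the lysosomal membrane that also serves as a receptor in chaperone-mediated autophagy, rose by 0.45 ± 0.07 in pcDNA and 0.55 ± 0.07 in pCTSH#1 at 16 h. It also rose by 6 h in pcDNA, by 0.25 ± 0.07 (adjusted p = 0.00646), where Scarb2 at 0.18 did not pass as deposited but did under cyclic loess, the brighter 50% of probe sets, trend and robust settings and array weights. The 6 h difference in pCTSH#1 was 0.18, with an adjusted p of 0.0554. Cd63, a tetraspanin of late endosomes and lysosomes, rose by 0.24 ± 0.06 in each line at 16 h, and both calls ended when only the arrays compared were fitted.

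Lamp1, the most widely used marker protein of the lysosomal membrane, read 11.74, 11.72 and 11.87 at 0 h in pcDNA and 12.03, 12.19 and 12.05 at 16 h. The pCTSH#1 arrays read 11.72, 11.60 and 11.81 at 0 h and 12.12, 12.07 and 11.81 at 16 h. The pcDNA groups did not overlap, whereas replicate 3 of pCTSH#1 at 16 h stood level with the highest array at 0 h. The rise was 0.32 ± 0.09 in pcDNA (adjusted p = 0.00401) and 0.29 ± 0.09 in pCTSH#1 (adjusted p = 0.00817). The call in pCTSH#1 ended with only the arrays compared, and without replicate 1 at 16 h or replicate 2 at 0 h, where the adjusted p reached 0.0532 and the difference stayed at 0.23 or more. A second Lamp1 probe set lay at background with a mean of 3.38 and gave no reading of its own.

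Mcoln1, the TRPML1 channel that releases calcium from lysosomes, dipped before it recovered. It read 8.84, 9.0 and 8.75 at 0 h, 8.48, 8.43 and 8.53 at 6 h, and 8.93, 8.99 and 9.24 at 16 h in pcDNA. The 6 h arrays lay below all others of the line. The fall to 6 h was -0.39 ± 0.09 in pcDNA (adjusted p = 0.00299) and -0.28 ± 0.09 in pCTSH#1 (adjusted p = 0.0323), and the rise from 6 to 16 h was 0.57 ± 0.09 and 0.45 ± 0.09. The fall in pCTSH#1 ended under cyclic loess and without replicate 1 or 2 at 0 h or replicate 2 or 3 at 6 h. Against 0 h the 16 h level of Mcoln1 did not pass as deposited (adjusted p = 0.112 and 0.135), but it passed in both lines under median centring and cyclic loess, where all 5 membrane proteins were higher. All 5 rose from 6 to 16 h in both lines, beside 24.8% and 24% of all genes and 34.6% and 33.4% of the brighter ones. The smallest of these rises, Lamp2 in pcDNA (0.19 ± 0.07), did not pass with only the arrays compared, or without replicate 1 or 3 at 16 h or replicate 3 at 6 h.

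The promoters of the members were read for the element that Tfeb can bind, because these genes moved in different directions. RefSeq's promoter table (build GRCr8) covers 250 bases before to 50 after a gene's start, a window of 300 bases, and held 32 of the 40 members. The 6-base core CACGTG was present in 7 of the 32 (21.9%), against 8.96% of the 11058 promoters of genes on the array and 6.42% of all 33469. The longer palindrome TCACGTGA, which contains that core, was present in 4 of the 32 (12.5%), against 1.49% and 0.777%. Both strands read alike for these palindromes, and positions are counted with the start base as 0. The 10-base form with G before and C after that palindrome was in 0 of the 32 and in 0.47% of the promoters of genes on the array.

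The 4 carriers of the 8-base palindrome were Lamp1, Mcoln1, Atp6v0d1 and Atp6v0e1. Their elements are shown with 10 bases on each side, 5′ to 3′ on the strand of the gene, with the palindrome in capitals, so that the matches and their flanks can be compared. The Lamp1 elements begin at -66 (chr16:83075112-83075139, minus strand) and at -39 (chr16:83075085-83075112, minus strand), the Mcoln1 element at 3 (chr12:6358251-6358278, plus strand), the Atp6v0d1 element at -53 (chr19:50357284-50357311, minus strand) and the Atp6v0e1 element at 23 (chr10:17007116-17007143, minus strand). The starts used for Lamp1 and Mcoln1 lie within the span that RefSeq gives the gene, so other transcripts of both begin further upstream. The same holds for Cd63, Gaa, Lamp2 and Atp6v1a, whose matches are named further below.
Lamp1 at -66: gaccctcggcTCACGTGAccggcgggcg
Lamp1 at -39: gcggcactgtTCACGTGAcaggcgctgc
Mcoln1: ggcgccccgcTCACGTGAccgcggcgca
Atp6v0d1: cccattgtggTCACGTGAgatgcagtgc
Atp6v0e1: cgcgcgccggTCACGTGAgcctctgttg

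Lamp1 stood out by its number of cores. The 200 bases before its start (chr16:83075064-83075263, minus strand) held 5 copies of CACGTG, marked in capitals, of which the last pair lies inside the palindromes above.
Lamp1, 200 bases before the start: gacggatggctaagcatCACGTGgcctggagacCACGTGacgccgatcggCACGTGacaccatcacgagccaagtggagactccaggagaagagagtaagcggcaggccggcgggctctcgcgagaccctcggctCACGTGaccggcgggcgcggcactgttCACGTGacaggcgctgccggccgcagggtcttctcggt
Carriers did not share a direction. Lamp1 rose and Atp6v0e1 fell in both lines, at 16 h against 0 h and also from 6 to 16 h. Mcoln1 rose from 6 to 16 h in both lines, but at 16 h against 0 h it did not pass. Atp6v0d1 fell at 16 h against 0 h in both lines, and its step from 6 to 16 h did not pass. The other carriers of the core were Cd63, which rose at 16 h, Glb1, which fell at 16 h in pcDNA, and Gaa, which did not pass. Elements known from cytokine signalling were searched in the same window on both strands. The interferon-gamma-activated form TTCNNNGAA was in 1 of 32 member windows, that of Atp6v0b (3.12%, against 7.02% of the promoters of genes on the array). The bases around this match read as an open run of codons. That window may therefore hold coding sequence, and no promoter site is drawn from it. The interferon-stimulated form, GAAA and again GAAA after any 2 bases, was in 4 (12.5%, against 2.94%): Lamp1, Lamp2, Grn and Atp6v1a, of which the first 3 rose and the last fell at 16 h. A match in these letters shows neither binding nor its absence.

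**Figure D2:**
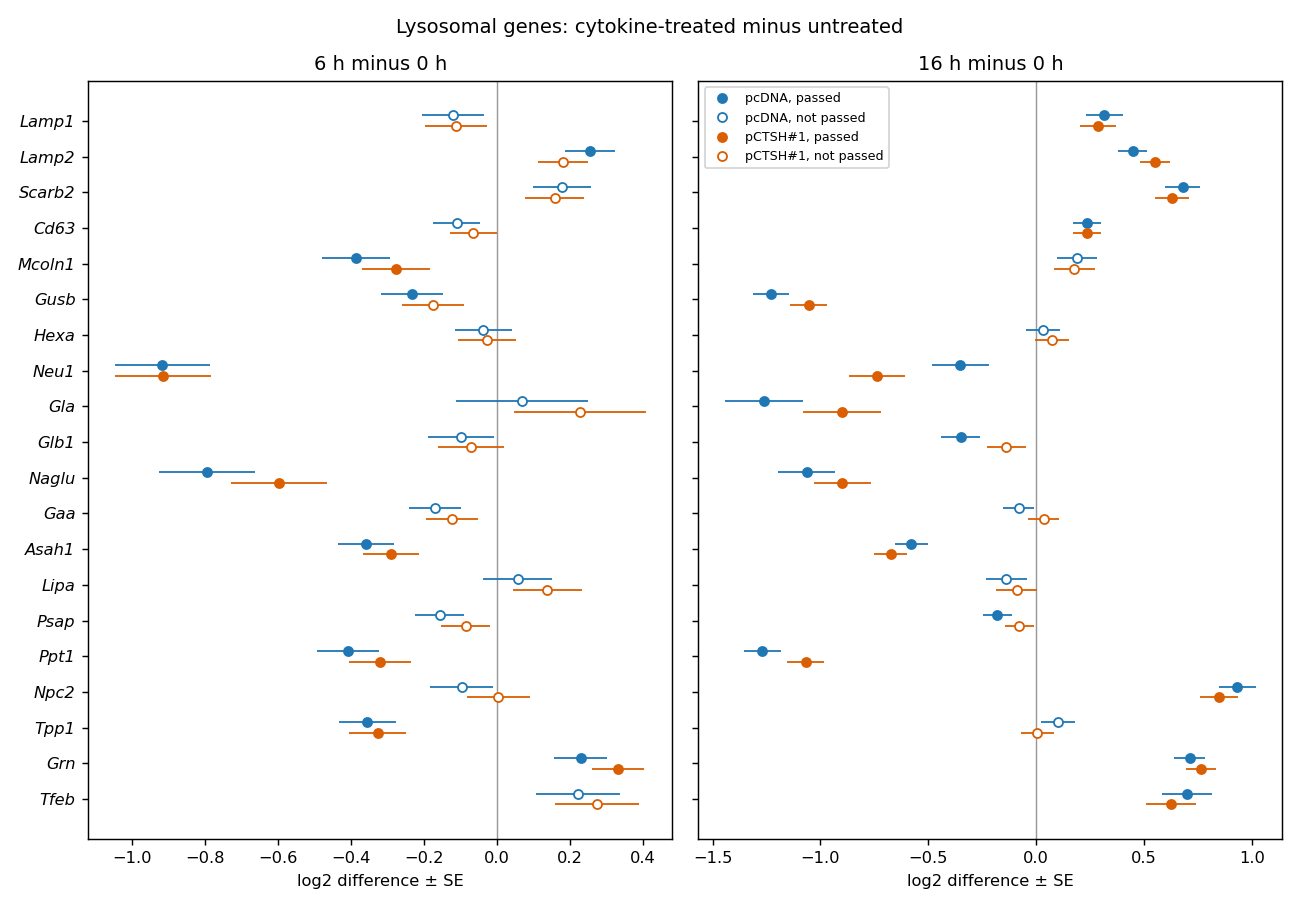
Points are log2 differences to 0 h ± SE for the 20 listed genes at 6 h (left) and 16 h (right), on separate horizontal scales, for pcDNA (blue) and pCTSH#1 (orange); filled points passed. At 16 h Scarb2, Npc2, Grn and Tfeb lay to the right of 0 in both lines, and Gusb, Gla, Naglu, Asah1 and Ppt1 to the left.

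Among the glycosidases, which trim sugars from glycoproteins, glycolipids and glycosaminoglycans, 5 of 7 fell in pcDNA and 4 of 7 in pCTSH#1 at 16 h, and 0 rose, beside 29.5% and 30.1% of all genes lower and 40.9% and 41.5% of the brighter ones. Gusb, the beta-glucuronidase, read 9.89, 9.98 and 9.77 at 0 h in pcDNA, 9.66, 9.65 and 9.62 at 6 h, and 8.67, 8.52 and 8.76 at 16 h. Its levels in pCTSH#1 were 9.81, 9.78 and 9.69 at 0 h, 9.57, 9.62 and 9.56 at 6 h, and 8.75, 8.62 and 8.74 at 16 h. The 16 h arrays were lowest in both lines, with a wide gap to the others. Gusb fell by 1.23 ± 0.08 in pcDNA (2.34-fold, adjusted p = 1.88e-10) and by 1.06 ± 0.08 in pCTSH#1 (2.08-fold, adjusted p = 1.88e-09). Its smaller fall at 6 h in pcDNA (-0.23 ± 0.08, adjusted p = 0.0425) ended under both scalings, with only the arrays compared, and without any 1 of the arrays compared except replicate 3 at 0 h.

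Gla, the alpha-galactosidase deficient in Fabry disease, was flat at 6 h and low at 16 h. It read 9.10, 9.15 and 8.76 at 0 h, 9.07, 9.08 and 9.06 at 6 h, and 7.84, 7.51 and 7.87 at 16 h in pcDNA. In pCTSH#1 the 16 h arrays were spread widely, at 7.07, 7.67 and 8.01, but all lay below the lowest 0 h array, 8.35. The fall was -1.26 ± 0.18 in pcDNA (adjusted p = 5.92e-06) and -0.90 ± 0.18 in pCTSH#1 (adjusted p = 0.000287), and a second probe set changed by -1.15 ± 0.13 and -0.94 ± 0.13.

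Naglu, which removes N-acetylglucosamine from heparan sulfate, fell early and stayed low. In pcDNA it read 8.06, 8.05 and 7.97 at 0 h, 7.33, 7.27 and 7.09 at 6 h, and 6.89, 6.79 and 7.21 at 16 h. All treated arrays lay below all untreated ones. The falls were -0.80 ± 0.13 at 6 h and -1.06 ± 0.13 at 16 h in pcDNA, and -0.60 ± 0.13 and -0.90 ± 0.13 in pCTSH#1. The step from 6 to 16 h did not pass in either line (adjusted p = 0.118 and 0.0765).

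Neu1, the lysosomal sialidase, had its lowest group mean at 6 h. It read 8.44, 8.33 and 8.40 at 0 h, 7.62, 7.56 and 7.23 at 6 h, and 8.12, 8.17 and 7.82 at 16 h in pcDNA. In the clone pCTSH#1 it read 8.57, 8.64 and 8.52, then 7.73, 7.54 and 7.71, and at 16 h 8.0, 7.99 and 7.52. All treated arrays lay below the 0 h arrays of their line. The fall at 6 h was -0.92 ± 0.13 in each line (adjusted p = 1.26e-05 and 1.62e-05), and in pcDNA the level then rose by 0.57 ± 0.13 to 16 h. Against 0 h the 16 h level was -0.74 ± 0.13 in pCTSH#1 (adjusted p = 7.58e-05) and -0.35 ± 0.13 in pcDNA (adjusted p = 0.0333). The pcDNA call ended under both scalings, in a second Neu1 probe set (-0.13), and without replicate 1 or 3 at 0 h or replicate 3 at 16 h. The test of the difference between the lines' 16 h responses did not pass for this probe set (-0.39 ± 0.18, adjusted p = 0.629) or for the other (-0.58 ± 0.15, adjusted p = 0.142).

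The remaining glycosidases moved little. Glb1, the lysosomal beta-galactosidase used as a marker of senescence, fell at 16 h in pcDNA (-0.35 ± 0.09, adjusted p = 0.00309) and read -0.14 in pCTSH#1, where it did not pass. Hexa, the alpha subunit of beta-hexosaminidase, and Gaa, which breaks down glycogen, did not pass against 0 h in either line at either time, with differences between -0.17 and 0.07. At 6 h in pcDNA, however, Gaa was lower with the brighter 50% of probe sets, trend and robust settings, array weights or the mean of its probe sets.

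Of the lipid enzymes and their helpers, Ppt1 and Asah1 fell and Npc2 rose in both lines at 16 h. Ppt1, which removes fatty acids from acylated proteins, read 9.38, 9.37 and 9.28 at 0 h in pcDNA, 8.84, 8.95 and 9.02 at 6 h, and 8.06, 7.93 and 8.23 at 16 h. The readings in pCTSH#1 were 9.37, 9.35 and 9.21, then 8.91, 9.07 and 9.0, then 8.27, 8.20 and 8.26. The groups stepped down without overlap at each time in both lines. The fall was 1.33-fold at 6 h and 2.41-fold at 16 h in pcDNA (adjusted p = 0.000814 and 1.25e-10), and 1.25-fold and 2.10-fold in pCTSH#1 (adjusted p = 0.00712 and 1.7e-09); with cyclic loess the 6 h fall in pCTSH#1 did not pass.

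Asah1, the acid ceramidase, changed by -0.36 ± 0.08 at 6 h and -0.58 ± 0.08 at 16 h in pcDNA, and by -0.29 ± 0.08 and -0.68 ± 0.08 in pCTSH#1. A second Asah1 probe set changed by -0.67 ± 0.09 and -0.71 ± 0.09 at 16 h. Psap, the precursor of the saposins that help enzymes reach glycolipids, read 11.46, 11.45 and 11.44 at 0 h and 11.33, 11.14 and 11.34 at 16 h in pcDNA. Its small fall (-0.18 ± 0.07, adjusted p = 0.034) ended under both scalings, with only the arrays compared, and without any replicate at 0 h or replicate 2 at 16 h. Lipa, the acid lipase that frees cholesterol from its esters, did not pass against 0 h in either line at either time, with differences between -0.14 and 0.14.

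Npc2, the soluble protein that hands cholesterol out of the lysosome, showed the largest rise among the members at 16 h in both lines. It read 9.36, 9.39 and 9.13 at 0 h, 9.26, 9.15 and 9.19 at 6 h, and 10.30, 10.29 and 10.09 at 16 h in pcDNA. Those of pCTSH#1 were 9.51, 9.68 and 9.54, then 9.62, 9.50 and 9.62, then 10.49, 10.39 and 10.39. The 6 h arrays stayed at the 0 h level, and the 16 h arrays stood clear of both. The rise was 0.93 ± 0.09 in pcDNA (1.91-fold, adjusted p = 1.53e-08) and 0.85 ± 0.09 in pCTSH#1 (1.80-fold, adjusted p = 6.06e-08).

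Grn, which encodes progranulin, a secreted protein that is also cut into granulins in lysosomes, rose at both times. In pcDNA it read 11.22, 11.16 and 11.20 at 0 h, 11.39, 11.37 and 11.50 at 6 h, and 11.94, 11.81 and 11.97 at 16 h. In pCTSH#1 it read 11.09, 11.04 and 11.02, then 11.34, 11.37 and 11.43, then 11.80, 11.81 and 11.84. The 3 time points did not overlap in either line. The rises at 16 h were 0.71 ± 0.07 (adjusted p = 4.97e-08) and 0.76 ± 0.07 (adjusted p = 1.83e-08). The rise at 6 h passed in both lines (0.23 ± 0.07 and 0.33 ± 0.07), but in pcDNA not with only the arrays compared, or without replicate 2 at 0 h or replicate 3 at 6 h. Tpp1, a tripeptidyl peptidase, went down and came back: it changed by -0.35 ± 0.08 and -0.33 ± 0.08 at 6 h, rose by 0.46 ± 0.08 and 0.33 ± 0.08 from 6 to 16 h, and did not pass at 16 h against 0 h. Under cyclic loess, however, Tpp1 was higher at 16 h in pcDNA (0.20).

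Tfeb, the transcription factor that can switch on many lysosomal genes, rose at 16 h in both lines. It read 7.02, 7.30 and 7.04 at 0 h, 7.30, 7.29 and 7.44 at 6 h, and 7.92, 7.91 and 7.62 at 16 h in pcDNA. The pCTSH#1 arrays read 7.15, 7.25 and 7.20, then 7.34, 7.45 and 7.64, then 7.64, 7.76 and 8.08. Levels at 16 h lay above all 0 h arrays, and the 6 h arrays sat in between or level with a neighbour. The rise was 0.70 ± 0.12 in pcDNA (adjusted p = 3.2e-05) and 0.63 ± 0.12 in pCTSH#1 (adjusted p = 0.000115). At 6 h the differences of 0.22 and 0.28 passed under cyclic loess only among the scalings. The later step in pCTSH#1 (0.35 ± 0.12 from 6 to 16 h) ended with only the arrays compared and without replicate 1 or 2 at 6 h or replicate 3 at 16 h.

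**Figure D3:**
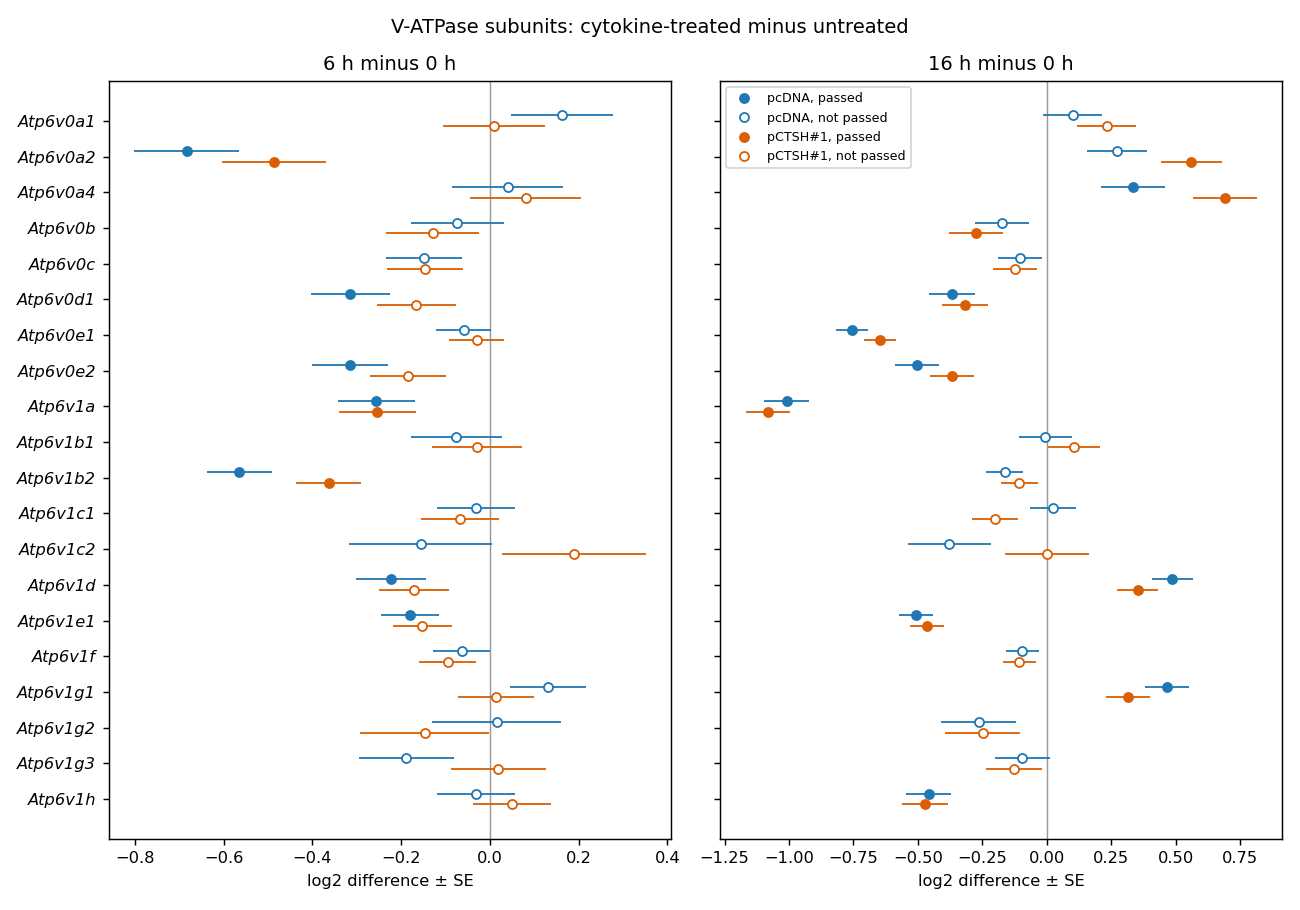
Points are log2 differences to 0 h ± SE for the 20 V-ATPase subunits at 6 h (left) and 16 h (right), on separate horizontal scales, for pcDNA (blue) and pCTSH#1 (orange); filled points passed. Atp6v1a lay furthest to the left at 16 h in both lines, and Atp6v1d and Atp6v1g1 lay to the right.

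Subunits of the proton pump moved in both directions. Of the 20 subunit genes 3 rose and 6 fell at 16 h in pcDNA, and 4 rose and 7 fell in pCTSH#1, with medians of -0.13 in both lines. The share that fell was near that of all genes (29.5% and 30.1%) and below that of the brighter genes (40.9% and 41.5%). The share that rose was below both, at 25.8% and 25.2% of all genes and 34.7% and 34.2% of the brighter ones. These counts include Atp6v0a4 and, in pCTSH#1, Atp6v0b, and of the other 18 subunits 2 rose and 6 fell in pcDNA and 3 rose and 6 fell in pCTSH#1. The subunits above background in all groups numbered 16. The isoforms Atp6v1b1 and Atp6v1g3 were at background on all 21 arrays, and Atp6v1g2 was so in 6 of the 7 groups. Atp6v0a4, known like Atp6v1b1 from acid-secreting kidney cells, was at background on 2 of 3 arrays of each group at 0 h.

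In the V1 sector, Atp6v1a, the catalytic subunit that binds and splits ATP, fell most. It read 11.29, 11.40 and 11.10 at 0 h, 11.05, 11.04 and 10.93 at 6 h, and 10.28, 10.19 and 10.30 at 16 h in pcDNA. Its levels in pCTSH#1 were 11.47, 11.39 and 11.26, then 11.18, 11.12 and 11.07, then 10.31, 10.29 and 10.28. The 16 h arrays lay far below the rest in both lines. The fall was 2.01-fold in pcDNA (-1.01 ± 0.09, adjusted p = 4.54e-09) and 2.12-fold in pCTSH#1 (-1.08 ± 0.09, adjusted p = 1.68e-09), and a second probe set changed by -0.95 ± 0.11 and -1.16 ± 0.11. The 6 h falls of -0.26 and -0.25 ended under both scalings and with only the arrays compared. They also ended without replicate 1 or 2 at 0 h or replicate 3 at 6 h in pcDNA, and without replicate 1 or 2 at 0 h or replicate 2 or 3 at 6 h in pCTSH#1. At 6 h the second probe set passed in both lines as deposited (-0.40 ± 0.11 and -0.31 ± 0.11, adjusted p = 0.00613 and 0.0369).

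Its partner in the catalytic ring behaved differently. Atp6v1b2, the B subunit of most tissues, read 11.55, 11.58 and 11.36 at 0 h, 10.87, 10.94 and 10.98 at 6 h, and 11.35, 11.28 and 11.36 at 16 h in pcDNA. Its low point was at 6 h, and the 16 h arrays lay at or just below the lowest 0 h array. The fall at 6 h was -0.56 ± 0.07 in pcDNA (adjusted p = 3.72e-06) and -0.36 ± 0.07 in pCTSH#1 (adjusted p = 0.00066), the rise from 6 to 16 h was 0.40 ± 0.07 and 0.26 ± 0.07, and at 16 h the differences to 0 h of -0.16 and -0.11 did not pass. The 16 h difference of Atp6v1b2 in pcDNA passed with the brighter 50% of probe sets, trend and robust settings or array weights. It also passed without replicate 3 at 0 h. A second Atp6v1b2 probe set read 0.05 at 16 h in each line and did not pass. Among the stalk subunits, Atp6v1e1 changed by -0.51 ± 0.07 and -0.47 ± 0.07 at 16 h and the regulatory Atp6v1h by -0.46 ± 0.09 and -0.47 ± 0.09. Atp6v1d, the central shaft, and Atp6v1g1, of the peripheral stalk, went the other way.

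Atp6v1d read 10.24, 10.26 and 10.26 at 0 h, 10.09, 9.99 and 10.02 at 6 h, and 10.68, 10.69 and 10.85 at 16 h in pcDNA. In the clone pCTSH#1 it read 10.19, 10.26 and 10.29, then 10.01, 10.08 and 10.14, then 10.45, 10.70 and 10.66. All 16 h arrays were above the others in both lines, a rise of 0.49 ± 0.08 in pcDNA and 0.35 ± 0.08 in pCTSH#1. Atp6v1g1 rose by 0.47 ± 0.09 and 0.31 ± 0.09. At 6 h in pcDNA, Atp6v1d (-0.22 ± 0.08, adjusted p = 0.0371) and Atp6v1e1 (-0.18 ± 0.07, adjusted p = 0.0453) were lower, calls that ended under both scalings, with only the arrays compared, and without any 1 of the arrays compared except replicate 1 at 6 h. Atp6v1f and Atp6v1c1 did not pass against 0 h in either line, with differences between -0.20 and 0.03. At 16 h in pCTSH#1 both were lower with trend and robust settings. Atp6v1c1 was lower there also with the brighter 50% of probe sets, the mean of a gene's probe sets or without replicate 2 at 16 h.

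In the V0 sector, Atp6v0e1, a small membrane subunit, changed late. It read 11.22, 11.29 and 11.29 at 0 h, 11.17, 11.24 and 11.21 at 6 h, and 10.49, 10.47 and 10.57 at 16 h in pcDNA. The readings in pCTSH#1 were 11.13, 11.19 and 11.17, then 11.14, 11.11 and 11.14, then 10.53, 10.48 and 10.53. Levels at 0 and 6 h were close, and the 16 h arrays lay well below. The fall was -0.76 ± 0.06 (adjusted p = 2.67e-09) and -0.65 ± 0.06 (adjusted p = 2.71e-08). Its paralog Atp6v0e2 changed by -0.50 ± 0.09 and -0.37 ± 0.09, and Atp6v0d1, which couples the central shaft to the ring, by -0.37 ± 0.09 and -0.32 ± 0.09; under cyclic loess the last of these did not pass. The 6 h falls of Atp6v0d1 and Atp6v0e2 in pcDNA (-0.31 and -0.32) ended without replicate 1 at 6 h and without replicate 2 at 0 h, respectively.

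Atp6v0a2, a membrane subunit found on Golgi and endosomal pumps, had its lowest level at 6 h and its highest at 16 h. It read 7.51, 7.56 and 7.41 at 0 h, 6.92, 6.93 and 6.57 at 6 h, and 7.69, 7.80 and 7.81 at 16 h in pcDNA. Those of pCTSH#1 were 7.28, 7.43 and 7.41, then 7.15, 6.86 and 6.65, then 7.99, 7.92 and 7.89. The 3 time points were separate in both lines, with 6 h lowest and 16 h highest. The fall to 6 h was -0.68 ± 0.12 (adjusted p = 0.00011) and -0.49 ± 0.12 (adjusted p = 0.00336), and the rise from there to 16 h was 0.96 ± 0.12 and 1.05 ± 0.12. At 16 h against 0 h the rise passed in pCTSH#1 (0.56 ± 0.12, adjusted p = 0.000444) and not in pcDNA (0.27, adjusted p = 0.0655), where it did pass under both scalings, and the difference between these responses did not pass (adjusted p = 0.719). A second Atp6v0a2 probe set changed by -0.63 ± 0.15 at 6 h in pcDNA and rose by 0.57 ± 0.15 at 16 h in pCTSH#1.

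Atp6v0a4 reached 4.25, 4.24 and 4.65 in pcDNA and 4.82, 4.54 and 4.76 in pCTSH#1 at 16 h, close above background. Because only 1 of the 3 arrays at 0 h was above background in each line, the fitted differences are no measure of the size of its change. They were 0.69 ± 0.12 in pCTSH#1 (adjusted p = 9.03e-05) and 0.34 ± 0.12 in pcDNA (adjusted p = 0.0324), where the groups overlapped and the call ended with the trend and robust settings, array weights or only the arrays compared, and without replicate 2 or 3 at 0 h or replicate 3 at 16 h. The ring subunit Atp6v0c and the isoform Atp6v0a1 did not pass against 0 h, although under both scalings Atp6v0a1 was higher at 16 h in pCTSH#1. Atp6v0b, of the same ring, was read differently by its probe sets. The brighter one was -0.28 ± 0.10 at 16 h in pCTSH#1 (adjusted p = 0.0361), with overlapping groups, and -0.17 in pcDNA, where it did not pass. The dimmer one, with a mean of 6.77 over all arrays, rose by 1.54 ± 0.18 in pCTSH#1 and 1.67 ± 0.18 in pcDNA. No direction is therefore drawn for Atp6v0b.

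The lines shared most of their calls. At 16 h each line had 24 called members, of which 22 were called in the same direction in both (91.7% of each list, beside 88.8% and 89% over all genes). At 6 h the 10 calls of pCTSH#1 were all among the 16 of pcDNA, in the same direction, which is 100% of the shorter list and 62.5% of the longer (all genes 88.7% and 77.8%). From 6 to 16 h 21 calls were shared, 91.3% of the 23 in pcDNA and 95.5% of the 22 in pCTSH#1 (84.7% and 85.9% over all genes). No member was called in opposite directions at any of these times.

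Tests of the difference between the responses of pCTSH#1 and pcDNA, the interaction terms of the limma model, gave 0 members at 6 h, 0 at 16 h and 0 for the step from 6 to 16 h. The percentages of all genes called were 0.119%, 0.275% and 0.372%. At an unadjusted p below 0.05 the counts were 0, 0 and 1, the last being Neu1 (-0.39 ± 0.18). Every fit tried as an alternative also gave 0 members for these 3 tests. The 95% intervals of the differences between responses reached from -0.77 to 0.90 at 16 h over all members.

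**Figure D4:**
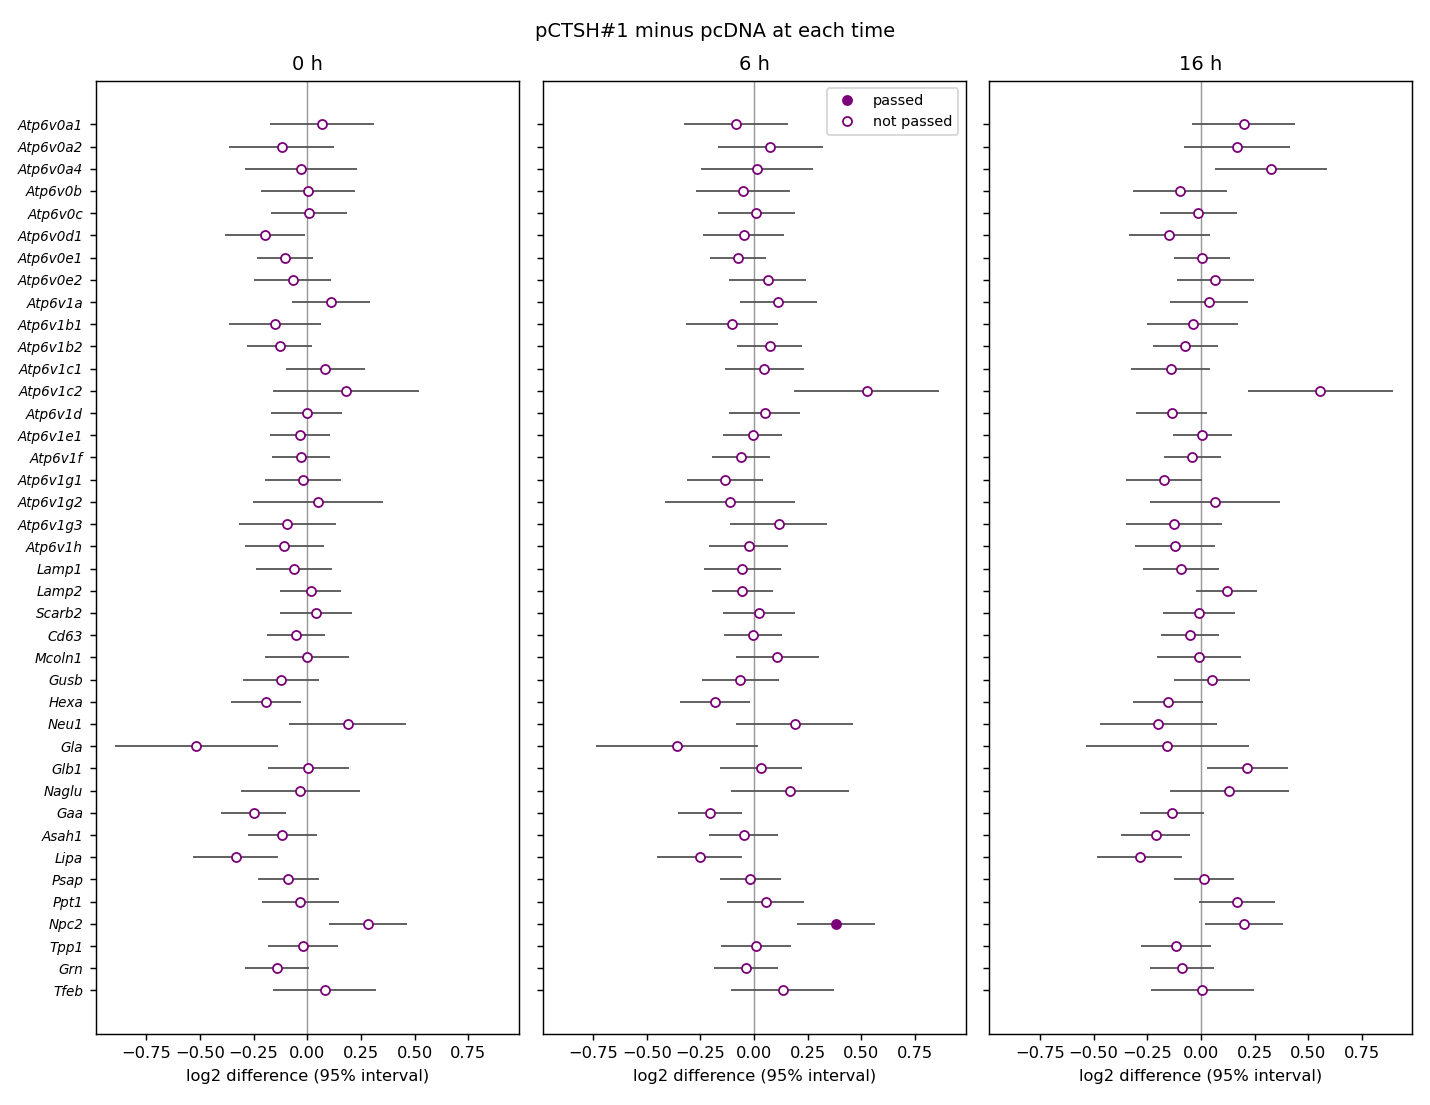
Points are log2 differences of pCTSH#1 minus pcDNA for the 40 members at 0, 6 and 16 h, lines are 95% intervals, and the filled point passed. Npc2 at 6 h (0.38) is the filled point, Lipa lies to the left of 0 at each time, and the widest intervals belong to Gla and Atp6v1c2.

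The levels of the clone and the vector line were close. Between pCTSH#1 and pcDNA 0 members passed at 0 h, 1 at 6 h and 0 at 16 h, beside 2.56%, 3.99% and 5.28% of all genes. At an unadjusted p below 0.05 there were 6, 5 and 6, which is near the 11.6%, 14.6% and 18% of all genes at that threshold. Differences ranged from -0.52 to 0.28 at 0 h, from -0.36 to 0.52 at 6 h and from -0.29 to 0.56 at 16 h, and at each time 37 of the 40 members had a 95% interval that lay wholly within 0.5 of 0. The widest intervals reached -0.90 for Gla at 0 h and 0.90 for Atp6v1c2 at 16 h, so a larger difference than the one measured remains possible for these genes.

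The member that passed was Npc2 at 6 h. It read 9.62, 9.50 and 9.62 in pCTSH#1 and 9.26, 9.15 and 9.19 in pcDNA, without overlap, as did 26.1% of all genes. The difference was 0.38 ± 0.09 (1.30-fold, adjusted p = 0.0164). It did not pass with median centring, or without replicate 1 or 3 of pCTSH#1 or replicate 2 or 3 of pcDNA at 6 h, where it stayed between 0.36 and 0.42 with an adjusted p of up to 0.0838. At 0 and 16 h Npc2 differed by 0.28 ± 0.09 and 0.20 ± 0.09 and did not pass (adjusted p = 0.136 and 0.263). The 0 h difference passed with trend and robust settings.

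Lipa was lower in pCTSH#1 at each time by its means. It read 6.56, 6.63 and 6.68 in pCTSH#1 at 0 h, against 6.82, 6.86 and 7.19 in pcDNA and 6.96, 7.14 and 6.84 in INS1. The clone lay below every array of the other lines. Groups without overlap were found for 18% of all genes against pcDNA and 18.5% against INS1. The difference passed against INS1 (-0.36 ± 0.09, adjusted p = 0.0486), the only 1 of the 40 members to do so, beside 3.45% of all genes. That call ended with both scalings, the trend and robust settings and only the arrays compared, and without any 1 of the arrays of the pair except replicate 3 of INS1. Against pcDNA the differences of -0.33 ± 0.09 at 0 h, -0.25 ± 0.09 at 6 h and -0.29 ± 0.09 at 16 h did not pass (adjusted p = 0.0922, 0.222 and 0.111). The first of these passed with the brighter 50% of probe sets and with the mean of a gene's probe sets.

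Other members with an unadjusted p below 0.05 between the clone and pcDNA at more than 1 time were Gaa, Hexa and Atp6v1c2. Gaa differed by -0.25 at 0 h and -0.20 at 6 h (adjusted p = 0.0955 and 0.176), and Hexa by -0.19 and -0.18 (adjusted p = 0.37 and 0.334). Atp6v1c2, an isoform of the subunit that bridges V1 and V0, read 5.25, 5.05 and 4.86 in pCTSH#1 and 4.68, 4.33 and 4.48 in pcDNA at 16 h. These groups did not overlap, as was so for 20.9% of all genes, and the difference of 0.56 ± 0.16 had an adjusted p of 0.0633. None of these is a called difference as deposited. Gaa passed at 0 h with the brighter 50% of probe sets, trend and robust settings or array weights. At 6 h Gaa passed with trend and robust settings or array weights. Atp6v1c2 passed at 6 h with array weights and at 16 h with the mean of a gene's probe sets. Between untreated pcDNA and INS1 0 members passed, beside 0% of all genes, with 0 at an unadjusted p below 0.05, and 38 of the 40 differences lay within 0.5 of 0 with their whole interval.

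**Figure D5:**
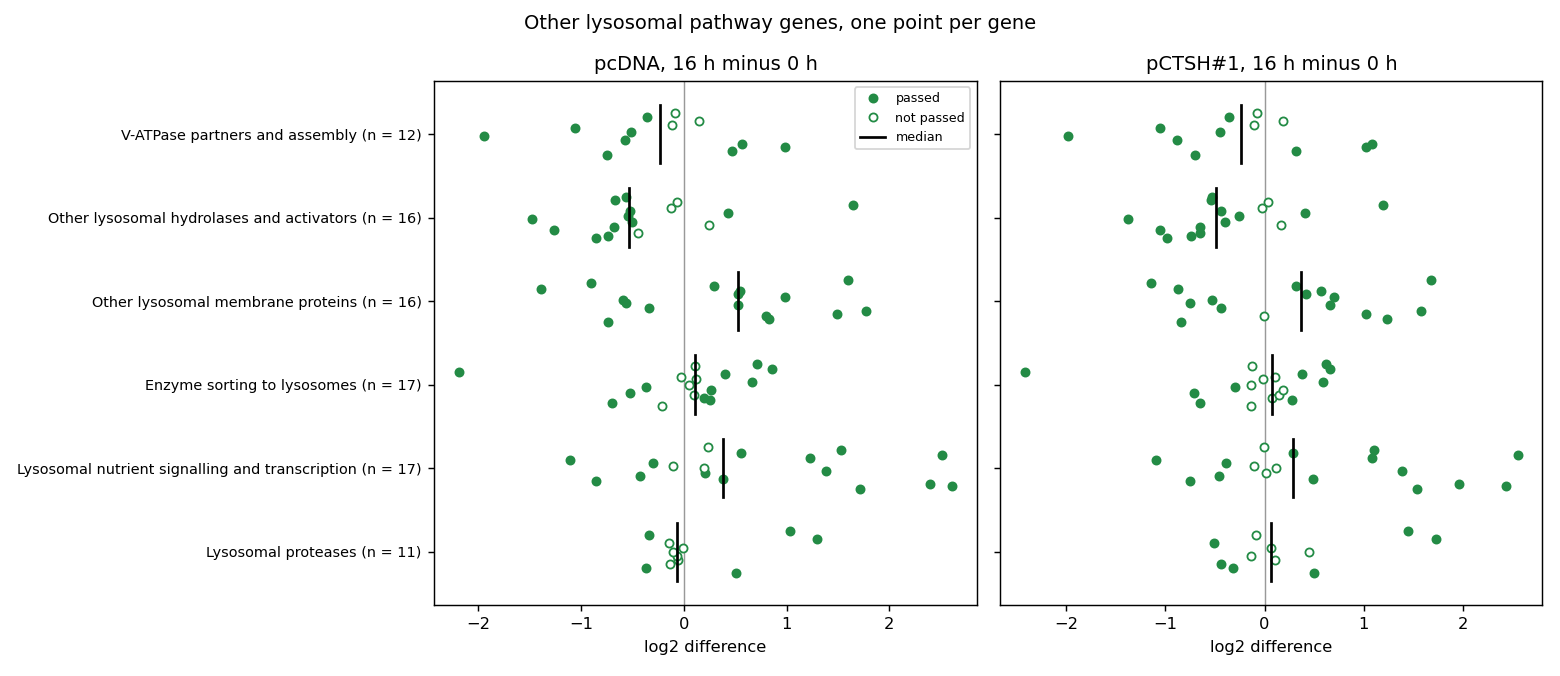
Each point is 1 gene of 6 further lysosomal lists (log2 difference at 16 h against 0 h, horizontal axis), for pcDNA (left) and pCTSH#1 (right); filled points passed and bars are medians. Hydrolases have medians of -0.53 and -0.49, and membrane proteins of 0.53 and 0.37.

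Other genes of the pathway were read from 6 lists. Their counts at 16 h stand beside 25.8% higher and 29.5% lower over all genes in pcDNA, and 25.2% and 30.1% in pCTSH#1, and those of the proteases, pump partners and sorting genes lie partly near these shares. Of 23 further hydrolases and activators 16 were measured, and at 16 h 2 rose and 10 fell in pcDNA, while 2 rose and 11 fell in pCTSH#1. Their medians of -0.53 and -0.49 stood beside -0.00 and -0.01 over all genes. Galc, which degrades galactosylceramide, changed by -1.47 ± 0.14 in pcDNA, and Arsb, an arylsulfatase, changed by -1.26 ± 0.08 and -1.05 ± 0.08, whereas Manba, the beta-mannosidase, rose by 1.64 ± 0.08 and 1.20 ± 0.08. Of 20 further membrane proteins 16 were measured, and 10 rose and 6 fell in pcDNA, while 9 rose and 6 fell in pCTSH#1. Ctns, the cystine exporter, rose by 1.77 ± 0.13 and 1.58 ± 0.13 and the endolysosomal channel gene Tpcn2 by 1.60 ± 0.16 and 1.68 ± 0.16, whereas Tpcn1 changed by -1.15 ± 0.11 in pCTSH#1. Galc and Tpcn1 are each given for 1 line because at most 4 genes per list and comparison were named, which marks no difference between lines. Neither passed between pCTSH#1 and pcDNA at 16 h, and from 6 to 16 h Galc changed by -1.22 in each line. The 11 lysosomal proteases had 3 higher and 2 lower in pcDNA and 3 higher and 3 lower in pCTSH#1, with Lgmn, the legumain protease, higher by 1.04 ± 0.09 and 1.45 ± 0.09.

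Pump partners moved both ways. Of 12 measured genes of V-ATPase partners and assembly 3 rose and 6 fell at 16 h in each line. Atp6ap1, an accessory subunit, changed by -0.74 ± 0.07 and -0.70 ± 0.07, while Atp6ap2, another accessory subunit and the prorenin receptor, rose by 0.47 ± 0.09 and 0.31 ± 0.09. Oxr1, whose product shares a domain with pump disassembly factors, changed by -1.94 ± 0.07 and -1.98 ± 0.07. Of the 17 genes of enzyme sorting 7 rose and 4 fell in pcDNA and 5 rose and 4 fell in pCTSH#1, and Sort1, a sorting receptor, changed by -2.19 ± 0.17 and -2.42 ± 0.17.

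Nutrient signalling at the lysosome, with its transcription factors, held larger rises than any member. Of 17 measured genes 10 rose and 4 fell at 16 h in pcDNA and 9 rose and 4 fell in pCTSH#1, with medians of 0.38 and 0.29. Fnip1 and Flcn, partners in a complex that acts on Rag GTPases, rose by 2.61 ± 0.09 and 1.71 ± 0.08 in pcDNA and by 2.43 ± 0.09 and 1.54 ± 0.08 in pCTSH#1. Rragd, a Rag GTPase, rose by 2.52 ± 0.13 and 2.56 ± 0.13, whereas Rraga changed by -1.11 ± 0.07 and -1.10 ± 0.07. Mitf and Tfe3, relatives of Tfeb, rose by 1.38 and 0.56 in pcDNA and by 1.39 and 0.29 in pCTSH#1; Tfe3 in pCTSH#1 did not pass without replicate 2 at 0 h or when its probe sets were averaged.

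Of the 89 genes on these lists 2 passed between pCTSH#1 and pcDNA at 0 h, 5 at 6 h and 6 at 16 h, beside 2.56%, 3.99% and 5.28% of all genes. At 0 h Lgmn differed by -0.53 ± 0.09 (adjusted p = 0.00242), and at 16 h the cathepsin gene Ctsl by -0.51 ± 0.07 (adjusted p = 0.000127) and Fnip2 by -0.94 ± 0.17 (adjusted p = 0.0022). The Lgmn and Ctsl calls ended with only the arrays compared. At 6 h Oxr1 was higher by 0.54 ± 0.07 (adjusted p = 0.0002) and Ap1s1, of the AP-1 sorting adaptor, by 0.35 ± 0.07 (adjusted p = 0.00435).

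Lamtor4, a subunit of the Ragulator complex that anchors Rag GTPases, was higher in pCTSH#1 at all 3 times, by 0.33 ± 0.08 at 0 h, 0.35 ± 0.08 at 6 h and 0.29 ± 0.08 at 16 h. Its call at 0 h ended with only the arrays compared, and without any 1 of those arrays except replicate 3 of pcDNA. That at 6 h ended when either replicate 1 of pcDNA or the second pCTSH#1 replicate was left out. The Lamtor4 call at 16 h ended with median centring, array weights or only the arrays compared. It also ended without replicate 3 of pcDNA or any replicate of pCTSH#1. The calls of Ap1s1, Cln3 and Dmxl2 at 16 h and of Gga2 and Flcn at 6 h ended with only the arrays compared, and each ended too without single arrays. For Ap1s1 these were replicates 1 and 2 of pcDNA and 2 and 3 of pCTSH#1, and for Cln3 replicates 1 and 3 of pcDNA and 1 of pCTSH#1. For Dmxl2 they were all arrays but replicate 1 of pcDNA, for Gga2 replicates 2 and 3 of either line, and for Flcn replicate 1 of either line.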

How the data were processed

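RNA of 7 groups was read on 21 Affymetrix expression arrays. The deposited values are log2 intensities that the authors made with RMA, with affy and limma also named, per the submitters' processing notes; versions are not given in the sources used here. RMA quantile-normalizes the arrays, so a shift shared by all genes would not be visible. The table held 31137 probe sets, of which 95 controls were left out; of the 31042 tested, 19063 had 1 gene symbol in the platform annotation, 572 had several and 11407 were unlisted there and stay unnamed. Nothing was renormalized. A group was at background when 2 or more of its 3 arrays lay at or below their brightest nonspecific control probe set. The number of arrays limits the precision.

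Group means were fitted with limma 3.58.1 in R 4.3.3 (lmFit and eBayes, 14 comparisons, all 21 arrays), with Benjamini-Hochberg adjustment over all probe sets; the procedure was tested on simulated data. Alternatives were a replicate block, median centring, cyclic loess, the brighter 50% of probe sets, trend and robust settings, array weights, only the arrays compared, other probe sets or their mean, and leaving out each array. Same-numbered arrays of a pair of groups deviated together, with all 3 correlations over 0.1, in 2 of 21 pairs of groups: untreated pcDNA with INS1 and with pCTSH#1. The main fits held no replicate term for any comparison, these pairs included, and the replicate block was run only as an alternative. Members and lists were chosen with earlier results of these data known. Every member could be named, and of each other list at most 4 genes per comparison, those with the smallest adjusted p past the threshold, beside Ctsh, Tfe3, Mitf, the insulin genes and pump accessory genes. Promoters and coordinates are from RefSeq (GRCr8); those of Atp6v0e2, Atp6v1b2, Atp6v1c1, Atp6v1h, Hexa, Asah1, Psap and Ppt1 were not used here. A second cathepsin H clone mentioned in the labels was not analysed here.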

Additional observations from a re-analysis of the deposited data

How the results depend on the processing

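Called members at 6 h against 0 h in pcDNA numbered 16, and 10 to 14 with 1 array left out, the lowest without replicate 2 at 0 h. The counts for the other time comparisons stayed at 22 to 25 (16 h against 0 h) and 21 to 24 (16 h against 6 h) in pcDNA, and at 8 to 11, 22 to 25 and 21 to 23 in pCTSH#1. Between pCTSH#1 and pcDNA at 0 h the count of 0 became 2 with the brighter 50% of probe sets and with trend and robust settings, and 1 with array weights and with the mean of a gene's probe sets. At 6 h the count of 1 became 0 with median centring, 2 with trend and robust settings and with only the arrays compared, and 3 with array weights, and leaving out 1 array gave 0 to 1. At 16 h the count of 0 became 1 with the mean of a gene's probe sets, and leaving out 1 array gave 0 to 1. Between pCTSH#1 and INS1 the count of 1 became 0 with the replicate block, median centring, cyclic loess and only the arrays compared, and 2 with the brighter 50% and with the mean of a gene's probe sets, and leaving out 1 array gave 0 to 1. Atp6v0b at 16 h in pCTSH#1 reversed to 0.63 with the mean of its probe sets and to 1.54 in the other probe set. Counts without Atp6v0a4 and Atp6v0b, chosen after seeing the data, were 23 and 22 at 16 h against 24 in each line. The replicate block ended 2 of the 121 called member values, Lipa against INS1 and Gusb at 6 h in pcDNA, and changed no other; same-numbered arrays correlated at -0.0903 to 0.244. Of 726 values with 1 array left out 659 stayed called and 67 did not, and none turned its sign. The cause was not tested.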
